A study of Mus musculus with 6 samples.

Results

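Transcripts of 9 telencephalic regulator genes were followed in the heads of mouse embryos that carried or lacked Tasp1. The 9 were Lhx2, Emx1, Emx2, Dlx1, Dlx2, Dlx5, Gsx2, Sp8 and Sp9. A probe set counted as a member when the platform annotation gave it exactly 1 of these symbols, with no filter on brightness. Each gene had 1 such probe set, so the set is 9 of 19938 named genes, and 9 of 21789 probe sets with 1 gene symbol among 35556 in the table. The genes were chosen after several of them had been seen lower in the KO-labelled heads. Their differences between the groups are therefore a description and carry no test.

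The series holds 6 heads of E10.5 embryos, trimmed to forebrain and midbrain, all on the background strain C57Bl6. Of these, 3 carry the label WT and 3 the label Tasp1 KO (Tasp1-/-), each its own embryo from crosses of Tasp1+/- parents. The labels give no conditional allele and do not say which part of Tasp1 was removed. The gene's product, Taspase1, is a protease whose substrates include the histone methyltransferases KMT2A and KMT2B and the TFIIA precursor. The values are deposited log2 signals from 1 array per head.

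The telencephalon is the front of the forebrain, from which the cerebral cortex (dorsal) and the basal ganglia (ventral) form. Its regions are set by transcription factors that are made in overlapping fields of the dividing neuroepithelium. On the dorsal side Lhx2, a LIM-homeodomain selector gene, keeps cortical precursors from becoming hem or antihem, and the homeobox genes Emx1 and Emx2 act in the cortical field. On the ventral side Gsx2 specifies the lateral ganglionic eminence, and the Dlx genes act downstream in precursors of inhibitory neurons. Sp8 and Sp9 encode zinc finger factors of the Sp family, made at the anterior and medial edge of the telencephalon and later in ventral precursors. Several of these genes are not confined to the telencephalon. Lhx2 is also made in the optic vesicle, and Dlx genes in branchial arch mesenchyme and in surface ectoderm.

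The promoters are shown first because KMT2A and KMT2B bind DNA through a domain that recognises unmethylated CpG dinucleotides. They were read from the RefSeq promoter table of build GRCm38.p6, as the 250 bases before a gene's start. The table held 11 promoters for 8 of the genes, with 2 for Lhx2 and 3 for Sp8. Dlx5 had no entry. The first promoter of each dorsal gene and the first of Sp8 are printed 5′ to 3′ with every CpG in capitals. That of Sp8 was taken as a CpG-poor example from its 3, of which the second holds 32 CpG dinucleotides. Whether CpG content goes with the differences between the heads was not tested.
Lhx2, chr2:38339031-38339280, plus strand: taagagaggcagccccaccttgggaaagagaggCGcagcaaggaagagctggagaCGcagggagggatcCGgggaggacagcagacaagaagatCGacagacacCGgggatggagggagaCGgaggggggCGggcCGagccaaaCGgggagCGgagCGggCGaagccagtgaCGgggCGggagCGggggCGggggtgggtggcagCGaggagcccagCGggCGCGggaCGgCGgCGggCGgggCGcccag
Emx1, chr6:85187681-85187930, plus strand: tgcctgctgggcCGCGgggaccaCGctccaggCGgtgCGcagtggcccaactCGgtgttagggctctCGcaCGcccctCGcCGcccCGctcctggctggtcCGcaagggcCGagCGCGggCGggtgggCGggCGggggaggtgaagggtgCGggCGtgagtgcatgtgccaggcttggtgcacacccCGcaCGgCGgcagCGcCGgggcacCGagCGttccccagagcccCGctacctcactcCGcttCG
Emx2, chr19:59458440-59458689, plus strand: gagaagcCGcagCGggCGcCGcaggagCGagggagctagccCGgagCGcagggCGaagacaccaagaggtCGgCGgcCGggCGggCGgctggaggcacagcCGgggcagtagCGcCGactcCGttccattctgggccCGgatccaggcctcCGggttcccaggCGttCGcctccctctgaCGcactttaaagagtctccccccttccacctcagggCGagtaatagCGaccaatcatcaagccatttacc
Sp8, chr12:118846079-118846328, plus strand: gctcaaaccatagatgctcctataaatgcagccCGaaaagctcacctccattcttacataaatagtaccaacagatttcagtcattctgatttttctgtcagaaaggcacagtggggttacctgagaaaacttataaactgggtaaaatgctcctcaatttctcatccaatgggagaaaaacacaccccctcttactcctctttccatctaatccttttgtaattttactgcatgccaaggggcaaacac

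The 3 dorsal promoters printed above hold 25, 30 and 24 CpG dinucleotides (Lhx2, Emx1 and Emx2), and that of Sp8 holds 1. Over all 32851 promoters of the table the median was 6 and the upper quartile 16. The second Lhx2 promoter held 24, Dlx2 held 24, Dlx1 held 22, Sp9 held 18 and Gsx2 held 16. The remaining Sp8 promoters held 32 and 6. In all, 8 of the 11 promoters lay above the upper quartile.

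Some short motifs were searched on both strands of the same windows. TAATTA, a core that many homeodomains bind, was in 1 of the 11 promoters (the third of Sp8) and in 4.8% of all promoters. GGGCGG, the GC box to which Sp factors bind, was in 7 of 11 and in 32.7% of all. CCAAT was in 5 of 11 and in 33.8% of all. GGGCGG and CpG overlap in their letters, so their counts are not separate. A match is a description of letters, and binding was not measured here.

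**Figure D1:**
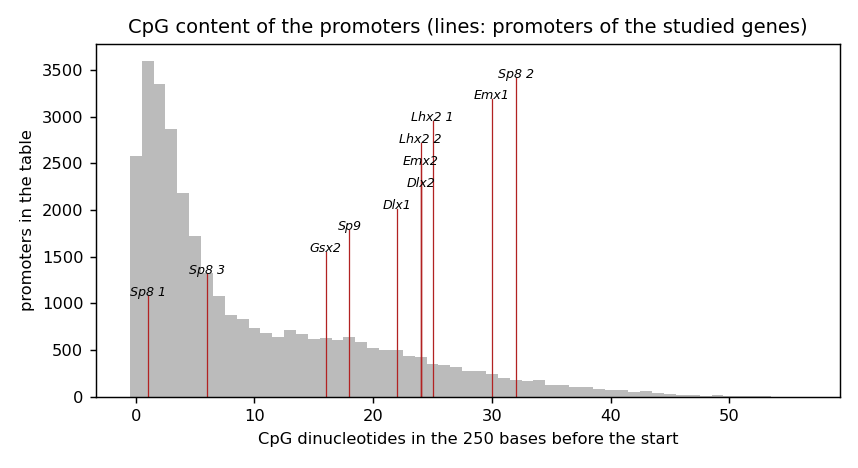
Grey bars give the number of promoters in the RefSeq table (y axis) with each number of CpG dinucleotides in the 250 bases before the start (x axis). Red lines mark the 11 promoters of 8 genes, with promoters numbered where a gene has several; their heights serve only to place the names. The dorsal genes lie between 24 and 30, and the 3 promoters of Sp8 spread from 1 to 32.

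The arrays were alike, with medians from 7.35 to 7.45 and Pearson correlations between arrays, across probe sets, from 0.996 to 0.998. WT 1 lay farthest out on the first principal component (−16.9, the other 5 heads from −5.15 to 10.1). Xist was high in WT 2 alone (12.3, where the rest read 4.90 to 5.24), and the Y-linked Kdm5d, Uty and Eif2s3y were low there alone, the female pattern among heads otherwise male in pattern. Tasp1 itself gave no lower signal with the KO label: 8.10, 8.45 and 8.49 in WT-labelled heads, then 8.63, 8.63 and 8.50 (two-sided exact permutation test, p = 0.1, as small as 3 against 3 allows). Every KO-labelled head lay above every WT-labelled head, as for 4.15% of all probe sets, with a difference of +0.24 (SE 0.10). Whether the Tasp1 probes lie in the removed part is not stated in the labels, so the Tasp1 signal does not check the labels. Over the 21789 probe sets with 1 symbol, limma called 0 (0%) at an adjusted p under 0.05, against 1354 (6.21%) at an unadjusted p under 0.05. None of the 9 genes was among those called.

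All 9 genes had a lower mean in the KO-labelled than in the WT-labelled heads, as did 56.3% of all probe sets tested. For Lhx2, Emx1, Emx2 and Sp9 every KO-labelled head lay below every WT-labelled head. That pattern was found for 6.76% of all probe sets, and since the genes were chosen on this comparison nothing is read from the count. The 4 differences lay between −0.33 and −0.27, ratios of 0.80 to 0.83. The tissue is a mixture of cells, so fewer cells of a type and less RNA per cell cannot be told apart.

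**Figure D2:**
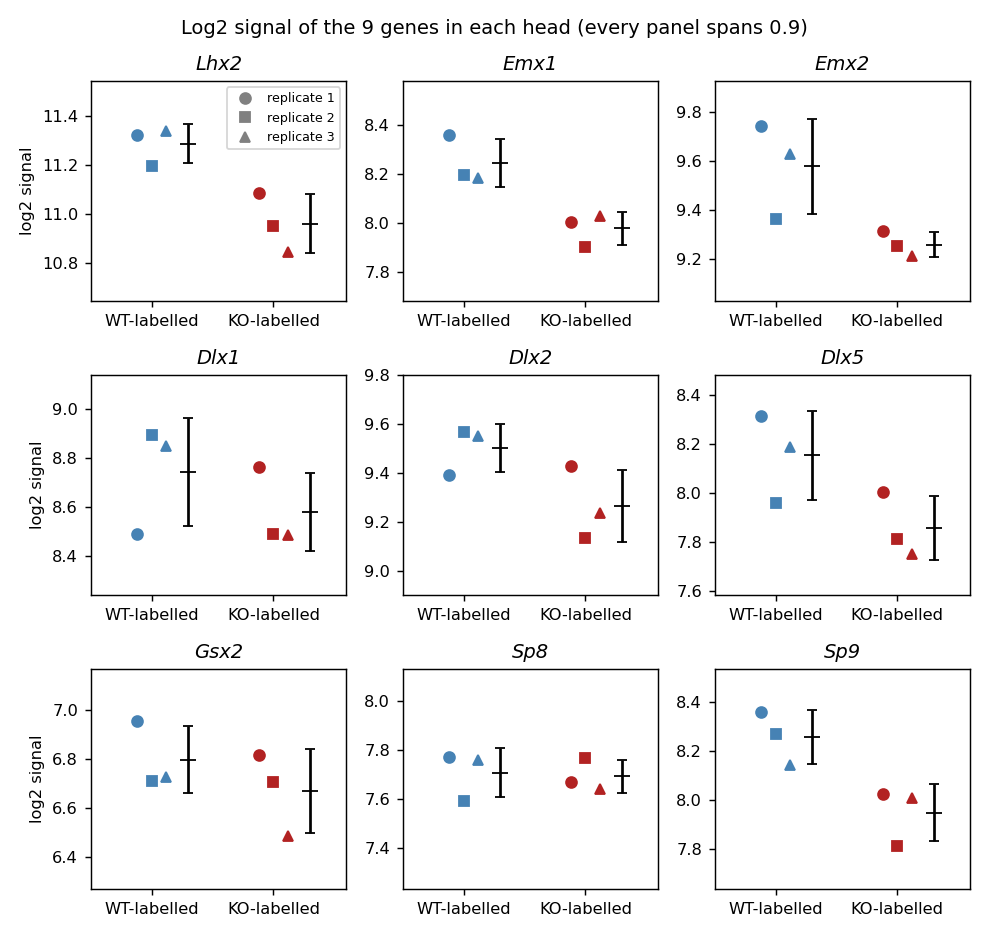
Log2 signal (y axis) of each of the 9 genes in the 3 WT-labelled heads (blue) and the 3 KO-labelled heads (red), with the replicate number as symbol; black bars give the group mean and SD. Every panel spans 0.9 units. Groups are apart for Lhx2, Emx1, Emx2 and Sp9 and overlap for the other 5 genes.

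Lhx2 was the brightest of the 9 probe sets relative to the array, above 94.8% of probe sets with 1 symbol. It read 11.33, 11.20 and 11.34 in the WT-labelled heads and 11.09, 10.95 and 10.85 in the KO-labelled heads (replicates 1, 2 and 3 in this and later lists). The lowest WT-labelled head, WT 2, stood 0.11 above the highest KO-labelled head, KO 1. The difference was −0.33 (SE 0.06; 11.29 ± 0.08 against 10.96 ± 0.12, SD, n = 3 each), or 0.80 times. Leaving out any 1 head gave −0.39 to −0.27.

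Emx1, whose product marks the cortical primordium, read 8.36, 8.20 and 8.18 in the WT-labelled heads and 8.00, 7.90 and 8.03 in the KO-labelled heads. The gap between the groups, 0.15, was the widest of the 9 genes. The difference was −0.27 (SE 0.07; 8.25 ± 0.10 against 7.98 ± 0.07, SD, n = 3 each), or 0.83 times.

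Emx2, which sets the size and the caudal and medial identity of the cortical field, read 9.74, 9.36 and 9.63 in the WT-labelled heads and 9.31, 9.25 and 9.21 in the KO-labelled heads. Here the WT-labelled heads were spread widely, with WT 2 only 0.05 above KO 1, while the KO-labelled heads lay close together. The difference was −0.32 (SE 0.09; 9.58 ± 0.19 against 9.26 ± 0.05, SD, n = 3 each). It was −0.24 without WT 1 and −0.43 without WT 2.

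Of the ventral genes, Dlx1 and Dlx2 lie side by side in the genome and act together in the differentiation of inhibitory neurons. Dlx1 read 8.49, 8.89 and 8.85 in the WT-labelled heads and 8.77, 8.49 and 8.49 in the KO-labelled heads. WT 1 was as low as KO 2 and KO 3, and KO 1 lay within the WT-labelled range, so the groups overlapped. The difference was −0.16 (95% confidence interval −0.41 to 0.08; 8.75 ± 0.22 against 8.58 ± 0.16, SD, n = 3 each). It was −0.29 without WT 1, −0.26 without KO 1 and −0.09 without WT 2.

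Dlx2 read 9.39, 9.57 and 9.55 in the WT-labelled heads and 9.43, 9.14 and 9.24 in the KO-labelled heads. Again WT 1 was the lowest WT-labelled and KO 1 the highest KO-labelled head, and these 2 heads alone made the groups overlap. The difference was −0.24 (SE 0.08; 9.50 ± 0.10 against 9.27 ± 0.15, SD, n = 3 each).

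WT 1 was also the head with the lowest Barx1 signal, 7.49 against 8.25 to 9.14 in the other heads, and with the lowest Lhx8 signal, 7.31 against 8.16 to 8.88. Barx1 is a homeobox gene of branchial arch mesenchyme, where Dlx1 and Dlx2 are made too, and Lhx8 is made there and in the ventral telencephalon. Over all 7 markers of arch and cranial mesenchyme the mean centred signal ran from −0.15 to 0.10 in the WT-labelled and from −0.12 to 0.16 in the KO-labelled heads, lowest in WT 1. Of the 7, 4 were higher and 3 lower in the KO-labelled heads, and the dimmest, Hand2, was brighter than 35.2% of probe sets. The part of arch tissue in the Dlx values was not tested.

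Dlx5, made in ventral precursors, in the anterior surface ectoderm and in the arches, read 8.31, 7.96 and 8.19 in the WT-labelled heads and 8.00, 7.81 and 7.75 in the KO-labelled heads. WT 2 lay just below KO 1. The difference was −0.30 (SE 0.10; 8.15 ± 0.18 against 7.86 ± 0.13, SD, n = 3 each), the largest of the ventral genes, and it was −0.22 without WT 1 and −0.39 without WT 2. Dlx6, its neighbour and partner, differed by −0.05 (SE 0.09).

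Gsx2 was the dimmest of the 9, brighter than 34.9% of probe sets, so its values rest on a dim probe set. It read 6.95, 6.71 and 6.73 in the WT-labelled heads and 6.82, 6.71 and 6.48 in the KO-labelled heads. Groups overlapped, and the difference of −0.13 (95% confidence interval −0.36 to 0.10; 6.80 ± 0.14 against 6.67 ± 0.17, SD, n = 3 each) was within the spread between heads. It was −0.03 without KO 3, −0.05 without WT 1 and −0.20 without KO 1.

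The pair of Sp genes did not move alike in these heads. Sp9 read 8.36, 8.27 and 8.14 in the WT-labelled heads and 8.02, 7.81 and 8.01 in the KO-labelled heads, with the groups 0.12 apart. Its difference was −0.31 (SE 0.08; 8.26 ± 0.11 against 7.95 ± 0.12, SD, n = 3 each), or 0.81 times. Sp8 read 7.77, 7.59 and 7.76 in the WT-labelled heads and 7.67, 7.77 and 7.64 in the KO-labelled heads, the groups lying over each other. Its difference was −0.02 (95% confidence interval −0.19 to 0.15; 7.71 ± 0.10 against 7.69 ± 0.07, SD, n = 3 each), a ratio of 0.99 (0.88 to 1.11), and its sign turned without WT 1 (+0.02), WT 3 (+0.01) or KO 3 (+0.01). The difference between the 2 genes was not tested.

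**Figure D3:**
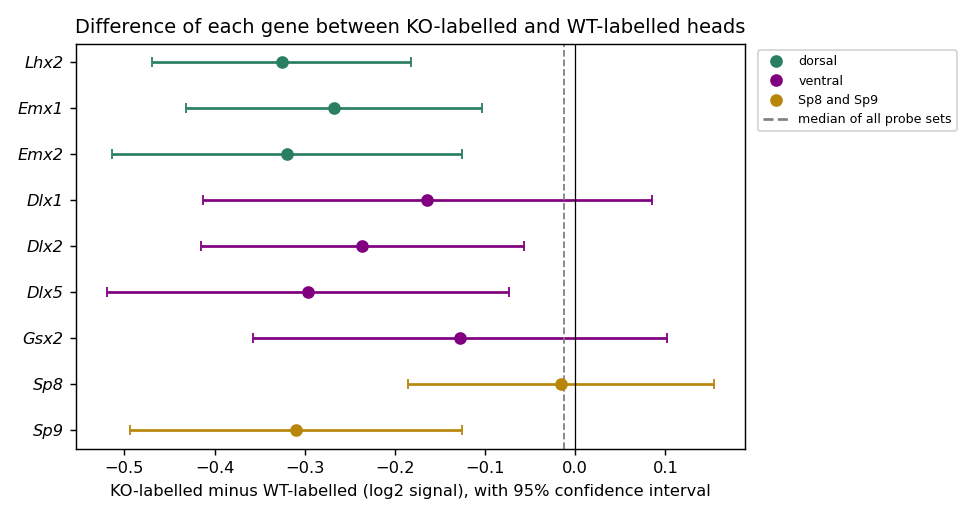
Difference between KO-labelled and WT-labelled heads (x axis, log2 signal) for each gene, with the 95% confidence interval of the limma fit over all 21789 probe sets, coloured as dorsal, ventral or Sp gene. The dashed line is the median of all probe sets (−0.01). Points of the dorsal genes lie between −0.33 and −0.27, those of the ventral genes between −0.30 and −0.13, and Sp8 lies at −0.02.

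Dorsal and ventral genes were then compared head by head, as the mean over the genes of each side of the log2 signal centred on each gene's mean over the 6 heads. The dorsal mean (Lhx2, Emx1, Emx2) was 0.26, 0.03 and 0.17 in the WT-labelled heads and −0.08, −0.18 and −0.19 in the KO-labelled heads. The ventral mean (Dlx1, Dlx2, Dlx5, Gsx2) was 0.09, 0.09 and 0.13 in the WT-labelled and 0.06, −0.16 and −0.21 in the KO-labelled heads. On both sides the groups of heads stood apart, in genes chosen on this comparison, but KO 1 came close to the WT-labelled heads on the ventral side. The difference between the groups was −0.30 for the dorsal and −0.21 for the ventral mean.

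The dorsal mean minus the ventral mean was 0.17, −0.05 and 0.03 in the WT-labelled heads and −0.14, −0.02 and 0.02 in the KO-labelled heads. These ranges overlapped. The groups differed by −0.10 in this contrast, where the SD between heads was 0.11 in the WT-labelled and 0.08 in the KO-labelled group. A larger difference on the dorsal side could thus not be told from the spread between heads. With Sp8 counted as dorsal and Sp9 as ventral the contrast was −0.01. As first defined it was −0.04 without WT 1, −0.05 without KO 1 and −0.15 without WT 2.

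Single heads stood high or low for several genes. KO 1 was the highest KO-labelled head for 7 of the 9 genes (all but Emx1 and Sp8), and KO 3 the lowest for 6. In the WT-labelled group WT 1 was the highest for 6 genes but the lowest for Dlx1 and Dlx2, and WT 2 was the lowest for 5. Without KO 1, every KO-labelled head lay below every WT-labelled head for 8 of the 9 genes, where 12.8% of all probe sets did so, with Sp8 as the exception. Without WT 1 it was 6 (10.7% of all probe sets), without WT 2 it was 5 (12.5%), and without WT 3, KO 2 or KO 3 it was 4 (15.3%, 10.4% and 14.2%).

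Markers of neurons followed a similar order among the KO-labelled heads. Their mean centred signal over 7 genes (Tubb3, Dcx, Elavl3, Elavl4, Stmn2, Nefm and Nefl) was 0.15 in KO 1, −0.11 in KO 2 and −0.29 in KO 3. In the WT-labelled heads it was 0.14, 0.20 and −0.08, so the groups overlapped. All 7 markers had a lower mean in the KO-labelled heads, 0 of them without overlap and 0 called. The part of neuron content in the values of the 9 genes was not tested.

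The labelled tissue was checked against markers of its regions. The telencephalic markers Fezf1, Fezf2, Six3 and Pax6 differed by −0.01, −0.22, −0.10 and −0.06, with 0 of the 4 free of overlap. The midbrain markers En1, En2, Pax5, Pax7, Otx2 and Lmx1b had a median difference of +0.06, 4 higher and 2 lower. Their mean centred signal ran from −0.11 to 0.12 in the WT-labelled and from −0.01 to 0.08 in the KO-labelled heads. All these genes were brighter than 52.3% of probe sets or more. Of the hindbrain markers, Hoxa2, Hoxb2 and Egr2 were brighter than only 14.0% to 26.2%, and Hoxb1 than 45.1%. The share of telencephalon in each dissected head was not measured apart from these genes. Eye markers (Rax, Six6, Mitf, Pmel and Crygs, 6 probe sets) were 4 lower and 2 higher, with a median of −0.05. Their mean centred signal ran from −0.01 to 0.12 in the WT-labelled and from −0.07 to −0.03 in the KO-labelled heads, without overlap. Of the 6, only Pmel (−0.50, SE 0.09) was itself without overlap, where 6.76% of all probe sets were lower in this way. The part of eye tissue in the Lhx2 values was not tested. Diencephalic markers split into 2 up and 4 down in the KO-labelled heads (median −0.01). Sim1 alone of these 6 was without overlap, at +0.31 (SE 0.06), where 4.15% of all probe sets were higher in this way. Among 7 surface ectoderm and placode markers, Cdh1 (+0.16) and Trp63 (+0.10) lay higher without overlap and Epcam (−0.11) lower. Of 5 progenitor markers only Vim was without overlap, lower at −0.10. The part of these tissues in the values of the 9 genes was not tested.

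**Figure D4:**
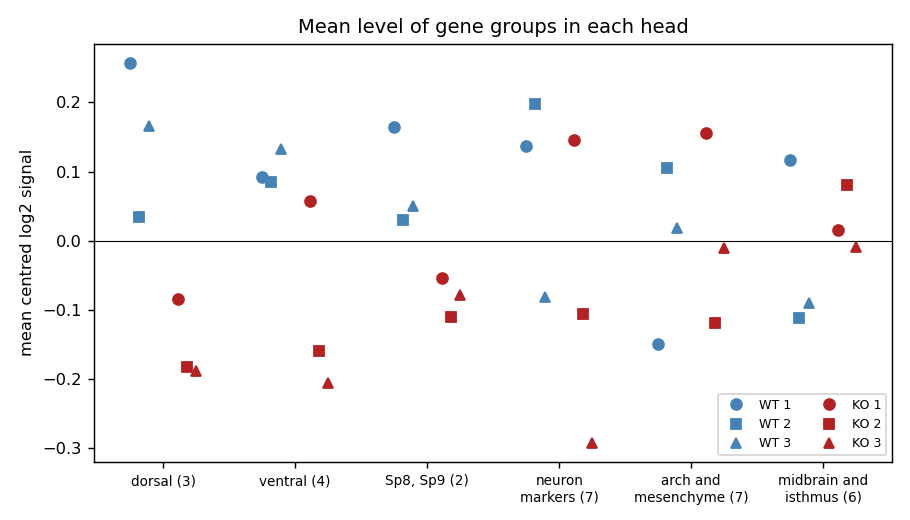
Mean centred log2 signal (y axis) of the dorsal, ventral and Sp genes and of 3 lists of markers, 1 point per head, with the number of probe sets in brackets. For the dorsal genes the WT-labelled heads lie between 0.03 and 0.26 and the KO-labelled heads between −0.19 and −0.08, while for neuron, arch and midbrain markers the groups overlap. Eye markers, for which the groups stand apart, are not drawn.

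Lists of other genes of the same field were set beside the 9. Of 20 other dorsal regulators 18 had a probe set, and 16 of these were lower and 2 higher, with a median difference of −0.08 where all probe sets had −0.01. In limma 0 of the 18 passed the threshold. Fezf1, Fezf2 and Pax6 are also among the telencephalic markers above, and Hes5 is also a progenitor marker. Every KO-labelled head lay below every WT-labelled head for Dmrt3, Dmrta1 and Nr2f1 and above for Lef1, where 6.76% and 4.15% of all probe sets did so. Dmrta1, a doublesex-related gene of cortical precursors, differed by −0.45 (SE 0.10), and its heads read 9.50, 9.10 and 9.21 (WT-labelled) and 8.92, 8.80 and 8.75 (KO-labelled).

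The largest differences in that list belonged to Tbr1 (−0.69, SE 0.28) and Eomes (−0.67, SE 0.23), T-box genes of the first cortical neurons and of intermediate precursors. Lhx9, the closest relative of Lhx2, differed by −0.37 (SE 0.14). All 3 overlapped between groups. KO 1 read 7.40 for Tbr1, within the WT-labelled range of 7.08 to 7.82, and KO 2 and KO 3 read 6.64 and 6.11. Eomes read 8.69 in KO 1, also within the WT-labelled range of 8.54 to 9.05, and 7.90 and 7.58 in KO 2 and KO 3. KO 1 thus again stood nearest the WT-labelled heads.

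Of 20 other ventral regulators 17 had a probe set, 12 lower and 5 higher, with a median of −0.05 and 0 called. Gsx1, the paralog of Gsx2, differed by −0.26 (SE 0.10) and Gad1, which encodes an enzyme of GABA synthesis, by −0.22 (SE 0.08). Both were without overlap and lower, as was Sox6 (−0.10), while Nkx6-2 was higher without overlap (+0.06). Of all probe sets 6.76% were lower and 4.15% higher in this way. Lhx8 differed by +0.24 (SE 0.33) and Gad2 by −0.16 (SE 0.12), with overlap. Nkx2-1, the selector of the medial ganglionic eminence, differed by −0.08 (SE 0.11).

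Among 24 relatives and LIM cofactors of the 9 genes, 22 had a probe set (23 probe sets in all), 16 probe sets lower and 7 higher, with a median of −0.05. Those for Gsx1 and for Sp3, the dimmer of 2, were lower without overlap, as 6.76% of all probe sets were. In limma 0 passed. Isl2 differed by −0.16 (SE 0.11). Ldb1, the cofactor through which LIM-homeodomain proteins such as LHX2 act, differed by −0.003 (SE 0.04). Gsx1, Dlx6, Isl1, Lhx6, Lhx8 and Lhx9 are also in the dorsal or ventral list. Dlx3, Lhx1, Lhx5 and Lmx1b are also tissue markers, so these lists are not separate.

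Signals that pattern the telencephalon had a median of −0.03 over 17 genes, 12 lower and 5 higher, with 0 called in limma. Those without overlap were Rspo3 (−0.33, SE 0.07), Rspo1 (−0.31, SE 0.07) and Bmp6 (−0.27, SE 0.08), secreted factors of the WNT and BMP pathways, all lower. This pattern was found for 6.76% of all probe sets. Wnt3a, made in the cortical hem, differed by −0.25 (SE 0.10) with overlap. Fgf8, the signal of the anterior edge, differed by +0.02 (SE 0.10) and Shh, the ventral signal, by −0.02 (SE 0.08).

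**Figure D5:**
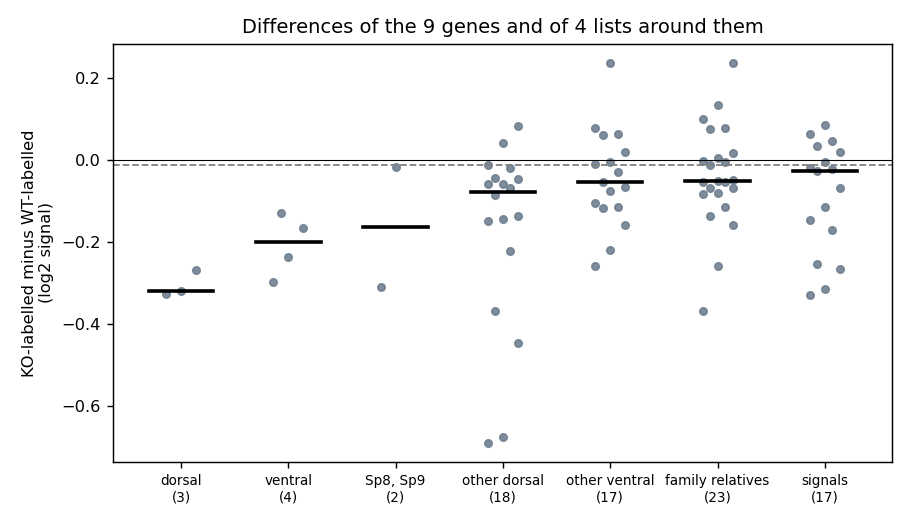
Difference between KO-labelled and WT-labelled heads (y axis, log2 signal) for each probe set of the 9 genes and of 4 lists, with the number of probe sets in brackets and the median as a black bar. The dashed line is the median of all probe sets (−0.01). List medians lie between −0.08 and −0.03, and those of the dorsal and ventral genes at −0.32 and −0.20.

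Position in the genome sets some of the 9 genes apart from the others. Lhx2, Dlx1, Dlx2 and Sp9 lie on chromosome 2, as Tasp1 does, and the other 5 on chromosomes 5, 6, 12 and 19. On chromosome 2, 7.71% of probe sets had every KO-labelled head below every WT-labelled head, against 6.68% elsewhere. Among the 10 nearest genes around Lhx2 with a probe set, 5 on each side, 6 had a higher and 4 a lower mean, the median was +0.06, and 0 were without overlap. Around Sp9, 8 of 10 had a higher and 2 a lower mean, and the median was +0.05. Sp3, a member of the same family on that side of Sp9, differed by +0.02 at its brighter probe set.

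Around Dlx1, 4 of the 9 neighbours outside the 9 genes were lower and 5 higher, with a median of +0.01. The lowest was Dlx1as, annotated antisense to Dlx1, at −0.26 (SE 0.13), with overlap. Off chromosome 2, the 10 neighbours of Emx2 had a median of −0.003 and those of Emx1 −0.06. Lower without overlap were E330013P04Rik, 2 genes from Emx2, at −0.31, Pdk4 near Dlx5 at −0.21, Sfxn5 beside Emx1 at −0.07 and, on chromosome 2, Cdca7 near Dlx2 and Sp9 at −0.08. Fip1l1 near Gsx2 was higher without overlap, at +0.08. Over all probe sets 6.76% were lower and 4.15% higher without overlap. Each of the 9 genes had a lower difference than the median of its own neighbours, in a comparison on which the genes were chosen.

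The probe sets most like the dorsal mean over the 6 heads were sought by the root mean square distance between centred log2 signals. They were Ramp2 (0.03), C1qb (0.04) and Rspo1 (0.04), where the median over all probe sets was 0.18. Ramp2 is a receptor subunit gene of endothelium, C1qb a complement gene of macrophages and Rspo1 a WNT enhancer, and they differed by −0.32, −0.30 and −0.31. Dlx5 lay at 0.06 from the dorsal mean, as near as Emx1, and the other ventral genes at 0.12 to 0.21. The endothelial markers Pecam1, Cdh5, Kdr and Tek differed by 0.001 to 0.07, and the macrophage markers Csf1r and Aif1 by −0.07 and +0.09.

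Nearest to the ventral mean were Foxo4 (0.03), Rnf157 (0.03) and Cat (0.03), where the median over all probe sets was 0.15. Foxo4 encodes a forkhead factor and Cat the enzyme catalase, and they differed by −0.20 and −0.23. Cat read 11.79, 11.78 and 11.77 in the WT-labelled heads and 11.67, 11.51 and 11.48 in the KO-labelled heads. Lhx2, at 0.07, was as near to the ventral mean as Dlx2. By this distance Dlx5 and Lhx2 each stood as near to the mean of the opposite side as some of that side's own genes did.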

How the data were processed

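Values are log2 signals, 1 per probe set and array, as deposited by the authors. Per the submitters' processing notes, Affymetrix Expression Console and MAS5 were used; no source used here gives their versions or roles, the background step or the genome build. The array medians lay between 7.35 (WT 1) and 7.45, and the maximum was 13.9 in KO 1 and 14.4 in the other heads. No further scaling or offset was applied in the main comparison. Of 35556 probe sets, 21789 had 1 symbol in the platform annotation, and all of these were tested without a brightness filter. The groups were compared in limma 3.58.1 (R 4.3.3; two-sided, lmFit and eBayes with trend), p-values were adjusted by Benjamini-Hochberg over all 21789, and the threshold was 0.05. SE and 95% confidence intervals are from that fit. The procedure was run on simulated data with independent normal noise for each probe set. Such data hold no shift of many genes in 1 head, so the run does not bear on the differences given here. With 3 arrays a group, their number limits the precision.

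The members and lists were chosen with earlier results of these data known. Besides members, the text names the 4 largest differences of each list, the 3 nearest profiles, list and tissue markers, and, chosen after their values were seen, list genes without overlap, Fgf8, Shh, Nkx2-1, Dlx6, Ldb1, Dlx1as, Sp3 and neighbours without overlap. Replicate numbers are shared between the groups, but the labels state no pairing. Chromosomes and gene order come from assembly GRCm38.p6, which 21698 probe sets matched by gene identifier. Figures were drawn with matplotlib 3.10.9.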

Additional observations from a re-analysis of the deposited data

How the results depend on the processing

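With 3 heads a group the number of arrays limits the precision, and since the genes were chosen on this comparison, the intervals given do not bound their differences. Of 108 values of the 9 genes under the alternatives, 104 were below 0. The 4 above 0 were all of Sp8, which reached +0.03. All 108 moved by less than 1 SD between heads, but for many of them this was fixed in advance. With 3 heads a group, leaving out 1 head cannot move a difference by 1 SD, and the replicate block cannot move it at all. Xist as a covariate, high in WT 2 alone, nearly repeats leaving out WT 2 (Lhx2 −0.38 and −0.37). Alternatives were quantile normalization, median centring, 64 added before log2, Xist signal as a covariate, the replicate block, each head left out, and array quality weights (added after seeing the data). The dorsal mean ran from −0.37 to −0.25, the ventral mean from −0.29 to −0.15, and their difference from −0.15 to −0.01. Same-numbered heads did not deviate together (correlations −0.14, −0.14 and −0.29). With 3 heads a group this cannot show whether the numbers pair them, and the labels state no pairing. A replicate block, which in this balanced design cannot move a difference (the dorsal mean stays −0.30), gave 0 called probe sets. Probe sets called in limma numbered 1 with array quality weights (Caprin2), 2 with 1 probe set a gene (Caprin2 and Mir9-1) and 9 among all probe sets, and 0 to 8 with a head left out, 8 without KO 1 and 1 (Sst) without WT 1. None of the 9 genes was called in any of these. The count of the 9 genes with every KO-labelled head lower was 4 to 8 with a head left out, where 10.4% to 15.3% of all probe sets did so. It was 5 with quantile normalization or median centring and 4 with 64 added, where the share over all probe sets was not counted. The median of the signals list was −0.083 with Xist as a covariate and ran from −0.086 to 4e-05 with a head left out. With the lowest 40% of probe sets left out, Gsx2 was not tested.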
